A study of Mus musculus with 6 samples.

Results

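Microglia are the resident macrophages of the brain and spinal cord. They arise from yolk sac precursors, depend on the receptor Csf1r and on TGF-beta signalling, and survey the tissue with purinergic and fractalkine receptors. They clear synapses, debris and dying cells through phagocytic receptors and a large lysosomal compartment. Described here is the transcriptome of microglia from naive mice, read from 1 RNA-seq library of the 6 libraries in the study; the others are the RNA-seq library of diseased mice and 4 DNA methylation libraries. The library was taken by its label, and each gene was placed by its rank and its share within that library alone. No gene was set against the diseased condition.

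The mice were C57Bl/6 and heterozygous for reporters inserted at 2 loci, RFP at Ccr2 and GFP at Cx3cr1 (Ccr2rfp/+::Cx3cr1gfp/+), so both genes had a single intact copy. They were sampled before induction of experimental autoimmune encephalomyelitis, a model of multiple sclerosis. The labels give an age of 24 to 28 weeks for induction and no separate age for the naive mice. Mononuclear cells were separated on a 30% and 70% Percoll gradient and sorted after staining for F4/80 and CD45. The extraction protocol names brains and spinal cords, and the design text names brains only. Cells of 30 mice were pooled, so nothing in this library measures the spread between mice. All intervals below are exact 95% intervals that cover counting error only, and no test was possible.

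The library held 31282093 counts over 42303 gene rows, of which 41797 had a gene symbol and 20943 of those had at least 1 count. Levels are given as FPKM, which divides a gene's counts by its length and by the library total, because counts alone favour long genes. Of the rows with a symbol, 12351 (29.5%) reached 1 FPKM and 347 (0.83%) reached 100 FPKM. Among 19897 genes that RefSeq lists as protein-coding, 10009 (50.3%) reached 1 FPKM and 268 (1.35%) reached 100 FPKM, with a median of 1.05 FPKM. These 4 shares are the background for every list of genes described here. No row used here matched a RefSeq gene of chromosome X or Y or of the mitochondrial genome, so such microglial genes as Gpr34, Cybb, Btk and Tlr7 were not analysed here. The total, the shares of counts and the FPKM values rest on the rows without these genes.

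The library was concentrated in few genes. The single gene with most counts took 4.05% of them, the 10 with most took 11.8% and the 100 with most took 28.7%. The 607 genes with most counts held 50% of them, and 5023 genes were needed to reach 90%. The 20 protein-coding genes above 1000 FPKM held 10.4% of all counts, and the 248 genes between 100 and 1000 FPKM held 19.2%. By share of counts the largest band was that of 10 to 100 FPKM, where 4245 coding genes held 47.9%, and the 5496 genes from 1 to 10 FPKM held 13.1%. At the other end, 5125 coding genes had 0 counts, a count that in this library allows up to 0.0959 CPM (counts scaled to the library total).

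The 4 genes given as markers of microglia were all among the 20 highest protein-coding genes by FPKM. Csf1r, the receptor for the survival factors Csf1 and Il34, had 376787 counts and 2466 FPKM and coding rank 7. Tmem119, a membrane protein used to tell microglia from other macrophages, had 128048 counts, 1768 FPKM and coding rank 10. P2ry12, the ADP receptor that directs microglial processes, had 115890 counts, 1455 FPKM and coding rank 13. Cx3cr1, the fractalkine receptor, had 126234 counts, 1078 FPKM and coding rank 20, with 1 of its copies replaced by the reporter. The measured levels thus placed all 4 far above the 100 FPKM that 1.35% of coding genes reached.

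The genes of the sort and the second reporter were also read. Adgre1, which encodes F4/80, stood at 235 FPKM. Ptprc, which encodes CD45, stood at 33.5 FPKM from 19190 counts, over a gene length of 18313 bases in the authors' FPKM. Ccr2, the receptor of inflammatory monocytes, had 542 counts and 2.71 FPKM. Cx3cr1 was therefore 398-fold above Ccr2 (interval 366 to 434).

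A wider list of microglia identity genes gave the same picture. All 29 of its genes that were found were above 1 FPKM, and 27 were above 100 FPKM. Their levels ran from 39.0 FPKM for Gpr84, a receptor for medium-chain fatty acids, to 9106 FPKM for Cst3, with a median of 523 FPKM, and the list held 8.27% of all counts. Selplg, the ligand of P-selectin, stood at 815 FPKM and the matrix protein gene Sparc at 737. Rnase4, a secreted ribonuclease, stood at 564 FPKM and Siglech at 442. Lower in the list were Aif1, which encodes the stain marker Iba1, at 139 FPKM, and Upk1b, a tetraspanin, at 59.7.

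**Figure D1:**
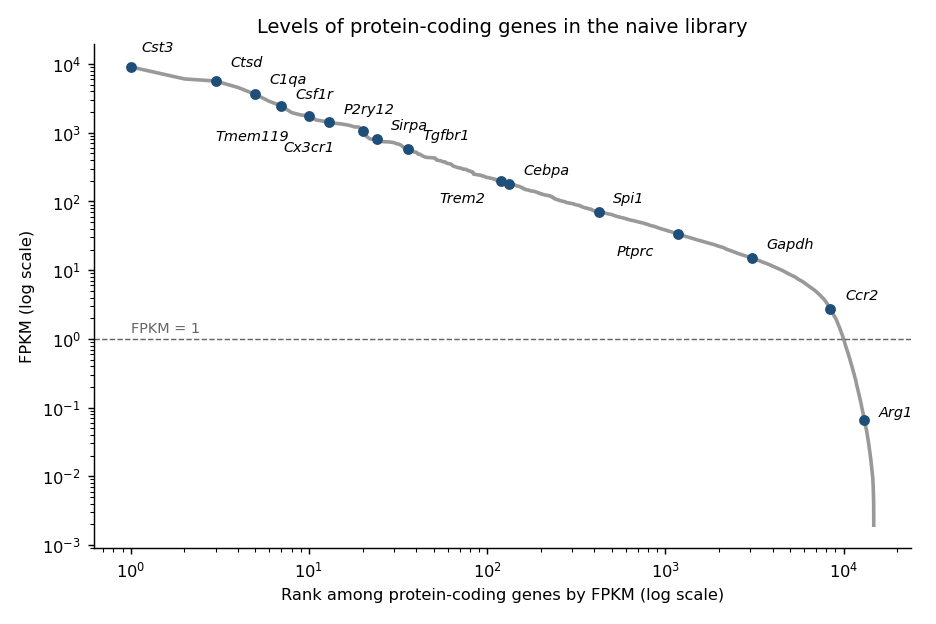
FPKM (log scale) against rank (log scale) for every protein-coding gene with counts in the naive library; each labelled point is 1 gene in the single library. The 4 given markers sit at ranks 7 to 20, Gapdh at 14.9 FPKM and Arg1, with 3 counts, at 0.065 FPKM.

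By FPKM the 25 highest genes fell into a few functional groups. With names of small nucleolar, small nuclear (U-type), microRNA, predicted, ribosomal protein and pseudogene genes left out, but not Rn7sk, Rpph1 and Rmrp, the first places went to these 3 short structural RNAs, described with the noncoding genes. Next came lysosomal genes and their inhibitors. Cst3, the secreted inhibitor of cysteine proteases cystatin C, had 9106 FPKM and led all protein-coding genes. Ctsd, an aspartic protease, had 5663 FPKM and, with 446211 counts, more counts than any other protein-coding gene. Ctss, a cysteine protease that also trims antigen, had 4565 FPKM. Lgmn, an asparaginyl endopeptidase, had 1967 FPKM and Psap, the precursor of sphingolipid activators, 1536.

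The complement genes C1qa, C1qb and C1qc, whose products join into the C1q molecule, stood at 3628, 2866 and 1817 FPKM. C1qa was 1.27-fold above C1qb (interval 1.26 to 1.28) and 1.996-fold above C1qc (interval 1.98 to 2.01). The remaining places were held by Fcrls, an Fc receptor-like scavenger receptor, at 1277 FPKM and Tyrobp, the adaptor of TREM receptors, at 1217. Vsir, an inhibitory immunoglobulin family receptor, stood at 888 FPKM and B2m, the light chain of MHC class I, at 1351.

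Genes of general cell functions were in the same range. Actb, cytoplasmic actin, stood at 1479 FPKM, Itm2b, a membrane protein that can modulate amyloid precursor processing, at 1374 and the membrane protein gene Serinc3 at 1215. Ttr, the thyroid hormone carrier made by the choroid plexus, also appeared, at 1316 FPKM, and is taken up with the genes of other cells. Several further high genes lay outside every list and were picked after their values were seen. They were the tetraspanin Cd81 at 765 FPKM, the selenium carrier Selenop at 728, glutamine synthetase (Glul) at 682, the pore-forming macrophage protein gene Mpeg1 at 612 and Unc93b1, the chaperone of endosomal Toll-like receptors, at 401.

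Of the 25 genes chosen by FPKM, 20 were also among the 25 chosen by counts. The counts added Sirpa, Tgfbr1, Macf1, Selplg and Lrp1. Gene length set some genes far apart in the orders: Macf1, a cytoskeletal linker with 26689 bases, had rank 21 by counts and 257 by FPKM. Birc6 had rank 221 by counts and 2986 by FPKM, Frmd4a 157 and 1728, Wnk1 142 and 1555, and Herc1 391 and 4156. The largest shifts the other way, with names of small nucleolar, small nuclear and predicted genes among those left out, belonged to short rows. Ighj1, a joining segment of 53 bases, had rank 10801 by counts and 515 by FPKM, and Rps27rt, Hist1h4d, Hist1h4c and Rn7s1 moved in the same direction.

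Receptors for nucleotides were divided between a few high genes and many near 0. Of 19 purinergic receptors and nucleotide enzymes, 8 were above 1 FPKM and the median was 0.641 FPKM. P2ry12 was 2.61-fold above P2ry13 (interval 2.58 to 2.64), the other Gi-coupled ADP receptor, at 558 FPKM. Entpd1 (CD39), which removes phosphates from ATP and ADP, stood at 243 FPKM, while Nt5e (CD73), which makes adenosine in the next step, had 19 counts and 0.0722 FPKM. P2ry6, the UDP receptor tied to phagocytosis, stood at 97.8 FPKM. The ATP-gated channel P2rx7 stood at 59.1 FPKM and P2rx4 at 12.2. Among adenosine receptors Adora3 reached 30.7 FPKM, and Adora1, Adora2a and Adora2b were between 0.328 and 0.762. P2rx2 had 0 counts.

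The chemokine and attractant receptors showed the same division, with 12 of 30 above 1 FPKM, 8 at 0 counts and a median of 0.403 FPKM, or 5.98 FPKM over members with at least 10 counts. Far below Cx3cr1, Cmklr1, the chemerin receptor, stood at 108 FPKM. Ptafr, the receptor for platelet-activating factor, stood at 96.3 FPKM. The anaphylatoxin receptors were lower, with C3ar1 at 53.2 FPKM, C5ar2 at 32.1 and C5ar1 at 26.9. Ccrl2, an atypical chemerin-binding receptor, stood at 11.8 FPKM. Ccr4, Ccr7, Ccr8, Ccr9, Ccr10, Cxcr1, Cxcr6 and Ackr2, receptors best known from lymphocytes, dendritic cells, neutrophils and lymphatic endothelium, had 0 counts.

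Most of the listed cytokine and growth factor receptors were present: 44 of 59 were above 1 FPKM and the median was 13.8 FPKM. After Csf1r the highest was Tgfbr1, at 581 FPKM and 3.03-fold above its partner Tgfbr2 (interval 2.99 to 3.06). Ifngr1, the binding chain for interferon gamma, stood at 382 FPKM and was 13.3-fold above Ifnar1 (interval 12.9 to 13.6), a chain of the type I interferon receptor. Il10ra stood at 377 FPKM, Csf3r at 123.2 and Tnfrsf1b, the second TNF receptor, at 123.2. Tnfrsf21, a death receptor, stood at 77.8 FPKM. At the low end of the list Kit, the stem cell factor receptor, had 18 counts, Il2ra 5, Il12rb1 1 and Il18r1 0, the only member at 0. Receptor chains for other lymphocyte cytokines were higher, with Il4ra at 72.9 FPKM, Il21r at 60.6 and Il17ra at 37.1. Interleukin receptor genes taken by name, beyond the list, were present less often. Of 28 such genes 10 (35.7%) were above 1 FPKM, beside 50.3% of all coding genes. The median of the 28 was 0.193 FPKM, and 7 had 0 counts.

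Pattern receptors were nearly all detected, with 25 of 27 above 1 FPKM and a median of 16.7 FPKM. Ly86 (MD-1), the partner of Cd180, stood at 693 FPKM although Cd180 itself stood at 24.2. Cd14, the co-receptor for lipopolysaccharide, stood at 193 FPKM and Tmem173 (STING), the adaptor of cytosolic DNA sensing, at 183. Among Toll-like receptors Tlr2 was highest at 69.0 FPKM, then Tlr4 at 51.1, and Tlr9, Tlr3, Tlr12, Tlr6 and Tlr1 ranged from 15.0 to 24.2. Nlrp3, an inflammasome sensor, stood at 35.5 FPKM, and Clec4a3, a C-type lectin, at 43.9. Tlr11 and Clec4e were below 1 FPKM.

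Fc, TREM and phagocytic receptors had 28 of 34 genes above 1 FPKM, 14 above 100 FPKM and a median of 40.3 FPKM. Fcgr3, an activating Fc receptor for IgG, stood at 743 FPKM, 3.47-fold above Fcgr1 (interval 3.41 to 3.53), 17.1-fold above the inhibitory Fcgr2b (interval 16.7 to 17.5) and 47.6-fold above Fcgr4 (interval 44.0 to 51.7). Fcer1g, their signalling chain, stood at 282 FPKM. Trem2, the lipid-sensing receptor that signals through Tyrobp, stood at 198 FPKM, and Trem1, the amplifier of inflammatory signals in neutrophils and monocytes, had 13 counts. Of the TAM receptors that bind phosphatidylserine through bridging proteins, Mertk at 333 FPKM was 23.4-fold above Axl (interval 22.5 to 24.5), and Tyro3 stood at 0.531. Among scavenger receptors Stab1 had 169 FPKM, Cd36 had 3.13, Msr1 had 2.98 and Marco had 0 counts.

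Integrins split by subunit. Of 26 genes, 15 were above 1 FPKM and the median was 1.39 FPKM. Itgb5, which pairs with Itgav, stood at 719.6 FPKM, 3.39-fold above Itgb2 (interval 3.34 to 3.44), while Itgav stood at 49.9. Itgam, the CD11b subunit, stood at 324 FPKM and was 55.3-fold above Itgax, the CD11c subunit (interval 51.4 to 59.5). Itgb1 had 111 FPKM, Itga6 93.3, Itga9 43.7 and Itgb3 29.2. Itga2 and Itga11, collagen-binding subunits, had 0 counts.

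Inhibitory receptors and related membrane proteins had 20 of 23 genes above 1 FPKM, 7 above 100 FPKM and a median of 35.5 FPKM. Behind Vsir came Sirpa, the receptor for the signal of CD47, at 799 FPKM and Laptm5, a lysosomal membrane protein of blood cells, at 655. Siglech, a sialic acid-binding lectin, stood at 442 FPKM, the tetraspanin Cd53 at 436, the collagen receptor Lair1 at 226 and the sialic acid receptor Cd33 at 117. Cd84, a homophilic SLAM family receptor, stood at 60.0 FPKM. Cd200r1, which receives the inhibitory signal of neuronal CD200, stood at 8.96 FPKM. Cd200r4, Cd300lf and Siglecg were below 1 FPKM.

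RefSeq promoter sequences, 250 bases before to 50 bases after each gene start, were found for 15596 protein-coding genes. They were searched on both strands for 8 words, each chosen with these levels known. The word GAGGAAG, a purine-rich sequence of the kind bound by the myeloid factor PU.1, was found in 15.2% of all promoters searched. It was in 14.3% of those of genes below 1 FPKM, in 16.0% of those from 1 to below 100 FPKM and in 48 of 198 (24.2%) of those at 100 FPKM or more. Among the inhibitory receptors 12 of 18 promoters held it, among Fc, TREM and phagocytic receptors 10 of 27, among microglia identity genes 7 of 22, and among complement and antigen presentation genes 1 of 17 and 0 of 15. Lists of lower level had shares in the same range: 6 of 12 for neutrophil markers, 4 of 8 for border macrophages, 3 of 5 for choroid plexus, 7 of 22 for neurotransmitter receptors and 4 of 12 for the DNA methylation machinery. The word was therefore not limited to lists with high levels. The longer word GAGGAAGT, which contains it, was in 3.67% of all promoters and in 15 of 198 at 100 FPKM or more. The lists share members, and a match describes letters only.

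The following windows before the start site are shown because they belong to 7 of the highest receptor and surface genes whose promoters hold GAGGAAG. Fcgr3, Slco2b1, Cd53 and Lair1 hold it too and are not printed. The sequences come from RefSeq on build GRCm38.p6 and run 5′ to 3′ along the gene's strand, with the word, or its reverse complement CTTCCTC, in capitals. They lie at chr3:87263642-87263688 (minus strand) for Fcrls, chr4:130913257-130913303 (plus) for Laptm5, chr4:47386101-47386147 (plus) for Tgfbr1, chr3:59210904-59210950 (minus) for P2ry13, chr7:128062536-128062582 (plus) for Itgam, chr3:96293999-96294045 (minus) for Fcgr1 and chr17:48346340-48346386 (plus) for Trem2.
Fcrls: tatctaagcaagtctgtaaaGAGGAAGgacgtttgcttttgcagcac
Laptm5: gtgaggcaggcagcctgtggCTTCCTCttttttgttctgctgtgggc
Tgfbr1: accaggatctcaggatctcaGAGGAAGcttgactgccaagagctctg
P2ry13: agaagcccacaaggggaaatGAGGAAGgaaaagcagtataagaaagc
Itgam: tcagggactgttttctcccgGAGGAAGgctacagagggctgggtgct
Fcgr1: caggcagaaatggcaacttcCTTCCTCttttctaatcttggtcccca
Trem2: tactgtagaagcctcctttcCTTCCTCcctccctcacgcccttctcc

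The word begins 144 bases before the start in Fcrls and 39 to 95 bases before it in the other 6 genes. Their levels ran from 198 FPKM for Trem2 to 1277 FPKM for Fcrls, with Laptm5 at 655, Tgfbr1 at 581, P2ry13 at 558, Itgam at 324 and Fcgr1 at 214. The other 6 words were read in the same way, over all promoters and then over genes below 1 FPKM, from 1 to below 100 FPKM and at 100 FPKM or more. CACGTG, the E-box core of TFEB-type factors, was in 9.23% of all promoters and in 6.19%, 12.1% and 12.1% of those groups, and in 10 of 36 lysosomal promoters. Its longer form TCACGTGA was in 1.42% of all, and in 0.501%, 2.25% and 4.04%. TATAAA was in 14.4% of all and in 20.8%, 8.02% and 16.7%, and in 13 of 38 secreted factor genes. The middle and highest groups were close for 2 other ETS-type words: GGAAGT was in 28.3% of all and in 22.2%, 33.9% and 34.8%, and GCGGAAG in 9.03% of all and in 3.06%, 14.7% and 13.1%. TGAGTCA, an AP-1 word, was in 5.47% of all and in 6.80%, 4.19% and 5.05%.

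Ion channels were widely detected at low levels, with 29 of 35 above 1 FPKM and a median of 7.88 FPKM. Kcnk6, a background potassium channel of the TWIK family, was highest at 148 FPKM and Clic1, an intracellular chloride channel protein, stood at 117. Hvcn1, the proton channel that supports the respiratory burst, stood at 79.2 FPKM. Kcnk13, the THIK-1 channel linked to microglial surveillance, stood at 28.9 FPKM. The store-operated calcium entry subunits Orai1, Orai3 and Orai2 stood at 37.9, 35.1 and 17.6 FPKM, and their sensor Stim1 at 15.5.

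Few neurotransmitter receptors were detected above 1 FPKM: 8 of 30, with a median of 0.0758 FPKM, or 0.669 FPKM over members with at least 10 counts. Adrb1, an adrenergic receptor, stood at 26.7 FPKM. Cnr2, the cannabinoid receptor of immune cells, stood at 12.2 FPKM, while Cnr1, that of neurons, had 12 counts. Gabbr1 stood at 8.93 FPKM, Hrh2 at 6.72 and Grm3 at 4.66. Chrna7, Htr2b, Htr7 and Oprm1 had 0 counts.

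Membrane proteins grouped by gene name gave a wider count of what was present. Of 372 solute carriers 183 were above 1 FPKM, led by the organic anion transporter Slco2b1 at 523 FPKM and the fructose transporter Slc2a5 at 195. Slc3a2, the heavy chain of amino acid exchangers, had 114 FPKM, Slc11a1, the phagosomal metal transporter, 80.8, and Slc44a2 77.3. Of 65 genes named Gpr 17 were above 1 FPKM, led by Gpr183, the oxysterol receptor, at 82.6 FPKM. Adhesion receptors numbered 10 of 25, led by Adgre1 and by Adgrg1 (GPR56) at 154 FPKM. Among potassium channel genes named Kcn 14 of 79 were above 1 FPKM, and among Ms4a genes 6 of 19, led by Ms4a6d at 59.0 FPKM. The intracellular Rab GTPases were more widely present, with 39 of 55 and Rab5c of early endosomes highest at 67.1 FPKM.

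**Figure D2:**
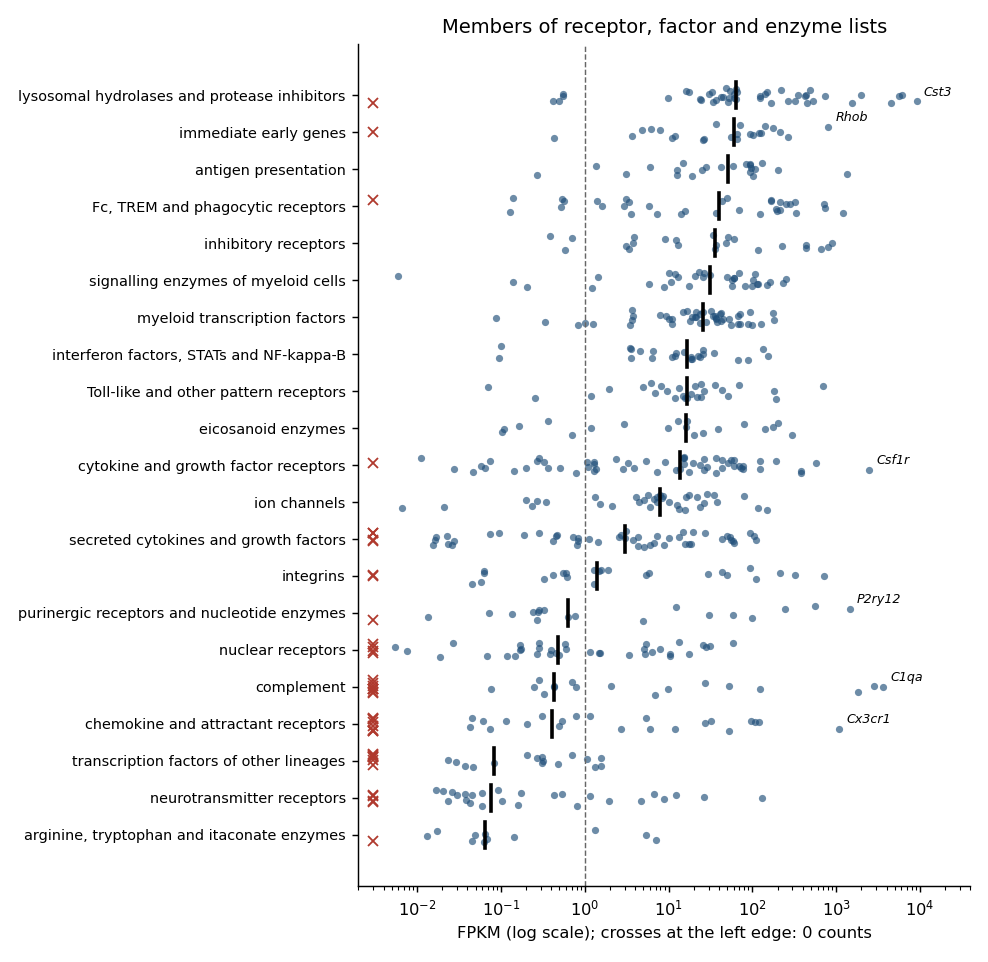
FPKM (log scale) of the members of 21 lists in the naive library; each point is 1 gene, the black bar is the list's median, crosses at the left edge are genes with 0 counts and the dashed line marks 1 FPKM. List medians run from 64.0 FPKM for lysosomal genes to 0.064 FPKM for arginine, tryptophan and itaconate enzymes.

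Myeloid transcription factors were nearly all present: 44 of 47 were above 1 FPKM, with a median of 25.6 FPKM and a highest value of 182 FPKM. Cebpa, which directs myeloid differentiation, stood at 182 FPKM. Sall1, the zinc finger factor that marks microglia among macrophages, stood at 127 FPKM, 5.31-fold above its relative Sall3 (interval 5.15 to 5.48). Irf8 stood at 88.8 FPKM and Spi1, which encodes PU.1, at 70.5. Mef2a had 97.9 FPKM, Ikzf1 71.4, Lyl1 68.3 and Fli1 67.5. The TGF-beta effectors Smad3, Smad2 and Smad4 stood at 44.2, 23.6 and 20.7 FPKM. Runx1, of blood and microglial development, had 18.9 FPKM, whereas Runx2 and Runx3 had 0.0868 and 0.332.

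Factors of interferon and cytokine signalling had 22 of 24 genes above 1 FPKM and a median of 16.8 FPKM. Irf5, an effector of Toll-like receptors, stood at 155 FPKM and was 42.8-fold above Irf7 (interval 38.5 to 47.8), itself an interferon-induced gene. Nfkbia, the inhibitor of NF-kappa-B, stood at 133 FPKM and Stat6, which carries interleukin 4 signals, at 68.3. Stat4, which carries interleukin 12 signals in lymphocytes, had 12 counts.

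Of 40 nuclear receptors 17 were above 1 FPKM, a share of 42.5% beside 50.3% of all coding genes. Their median was 0.477 FPKM, or 1.31 FPKM over members with at least 10 counts, with a highest value of 59.3 FPKM for Nr3c1, the glucocorticoid receptor. Rxra and Rxrb, common dimer partners, stood at 31.1 and 26.1 FPKM, Nr1d2, a clock repressor, at 27.7 and Nr1h2, a liver X receptor, at 17.4. Its relative Nr1h3 stood at 0.597 FPKM and Pparg, a lipid regulator of tissue macrophages, had 11 counts. Vdr, Esr2, Nr1h4 and Hnf4a had 0 counts. Transcription factors of other lineages had 4 of 23 genes above 1 FPKM, with a median of 0.0837 FPKM (0.315 FPKM with at least 10 counts) and none above 1.57 FPKM, the level of Otx2.

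Immediate early genes, which rise within minutes of stimulation and also during tissue dissociation, had 22 of 24 genes above 1 FPKM, 8 above 100 FPKM and a median of 60.5 FPKM. Rhob, a small GTPase, was highest at 806 FPKM. The AP-1 subunits Jun and Junb stood at 270 and 212 FPKM and Fos at 70.6, while Fosl1 had 0 counts. Btg2, an inhibitor of growth, stood at 177 FPKM, the mRNA decay factor Zfp36 at 127 and the heat shock genes Hspa1b and Hspa1a at 140.2 and 121. Egr1, often used as a sign of recent activity, stood at 11.8 FPKM and Nr4a1 at 7.91. The part of the isolation procedure in these levels was not tested.

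Lysosomal hydrolases, their cofactors and protease inhibitors were the most abundant enzyme list, with 41 of 46 above 1 FPKM, 21 above 100 FPKM and 6.95% of all counts. Within pairs of related enzymes the levels were unequal. Ctss was 10.6-fold above Ctsl (interval 10.5 to 10.8) and Ctsd 11.6-fold above Ctsb (interval 11.5 to 11.7). Ctsz, an exopeptidase, stood at 740.3 FPKM, the progranulin gene Grn at 455, the membrane protein Lamp1 at 439 and lysozyme (Lyz2) at 349. At the low end Ctsk, the osteoclast protease, had 20 counts, Ctse had 49, Ctsw, of cytotoxic lymphocytes, had 21 and Ctsg, of neutrophils, had 0.

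Among enzymes of prostaglandin and leukotriene synthesis 14 of 19 were above 1 FPKM and the median was 16.1 FPKM. Ptgs1, the constitutive cyclooxygenase, stood at 294 FPKM and was 413-fold above the inducible Ptgs2 (interval 340 to 507). Hpgd, which inactivates prostaglandins, stood at 201 FPKM, and Hpgds, a prostaglandin D synthase, at 79.9. On the leukotriene side Ltc4s stood at 176 FPKM and the activating protein gene Alox5ap at 142, with the lipoxygenase Alox5 at 12.9. Ptges, the inducible prostaglandin E synthase, had 20 counts.

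NADPH oxidase and redox enzymes had 18 of 23 genes above 1 FPKM. Of the phagocyte oxidase Cyba stood at 305 FPKM, Ncf1 at 217 and Ncf4 at 29.4, and the alternative oxidases Nox3, Nox4, Duox1 and Duox2 had 0 to 9 counts. Ncf1 has close pseudogene copies in mammals, so its value depends on how shared reads were counted. Gpx1, which reduces hydrogen peroxide, stood at 102 FPKM and Hmox1, heme oxygenase, at 38.4. Arginine, tryptophan and itaconate enzymes were the lowest enzyme list, with 3 of 12 above 1 FPKM. Nos2 had 9 counts, Acod1 4, Arg1 3 and Ido1 1, all enzymes known from activated macrophages.

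Glucose handling was uneven. The list had 20 of 24 genes above 1 FPKM and a median of 15.8 FPKM, or 25.4 FPKM over members with at least 10 counts. Slc2a5 was 55.0-fold above Slc2a3 (interval 51.3 to 59.1), a high-affinity glucose transporter. Hk2 at 88.5 FPKM was 13.96-fold above Hk1 (interval 13.3 to 14.7), and Hk3, a myeloid hexokinase, stood at 40.6. Aldoa had 105 FPKM, Ldhb 100.3, Pkm 68.1 and Ldha 25.5. Signalling enzymes of myeloid cells had 30 of 33 genes above 1 FPKM, led by the lipid phosphatase Inpp5d (SHIP1) at 249 FPKM, the Src family kinase Lyn at 231 and the exchange factor Vav1 at 161. Syk, the kinase downstream of Tyrobp, stood at 50.5 FPKM, while Lck and Zap70 of T cells had 19 and 13 counts.

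Outside C1q the complement system was mostly low. In all, 9 of 25 genes were above 1 FPKM, 8 had 0 counts and the median was 0.425 FPKM, or 2.08 FPKM over members with at least 10 counts. C4b stood at 6.90 FPKM. C3, the central component, had 115 counts and 0.715 FPKM, and the C1q-associated proteases C1ra and C1s1 stood at 0.783 and 0.245. Cfb, Cfd, Cfi, C1rb and the terminal components C6, C7, C8a and C9 had 0 counts.

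Secreted cytokines and growth factors had 31 of 53 genes above 1 FPKM and a median of 3.07 FPKM, or 5.96 FPKM over members with at least 10 counts. The highest were the chemokines Ccl3 and Ccl4 at 112 and 106 FPKM and the growth factor Pdgfb at 93.8. Il16 stood at 60.0 FPKM, Ccl12 at 58.2, Ccl6 at 55.2, Tgfb1 at 54.5 and Il1a at 43.0. Tnf stood at 18.6 FPKM, Il1b at 7.33 and Il6 at 5.08. Igf1, a growth factor that microglia can supply, had 130 counts and 0.420 FPKM. Il12b and Il23a had 1 count each, and Csf2, Ifnb1 and Il12a had 0.

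Receptors were set beside their ligands in 21 pairs, picked after the levels were known. In 19 pairs the receptor had the higher FPKM, and in 11 pairs the ligand was below 1 FPKM. Csf1r was 372-fold above Csf1 (interval 351 to 395), and Il34, its second ligand, had 49 counts. Cx3cl1, the ligand of Cx3cr1, had 84 counts and Il10, the ligand of Il10ra, had 3. In 2 pairs the ligand was higher: Apoe at 605 FPKM beside Trem2 at 198, and Pdgfb at 93.8 beside Pdgfrb at 3.91. These levels describe RNA of the sorted cells and not the supply of ligand in the tissue.

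**Figure D3:**
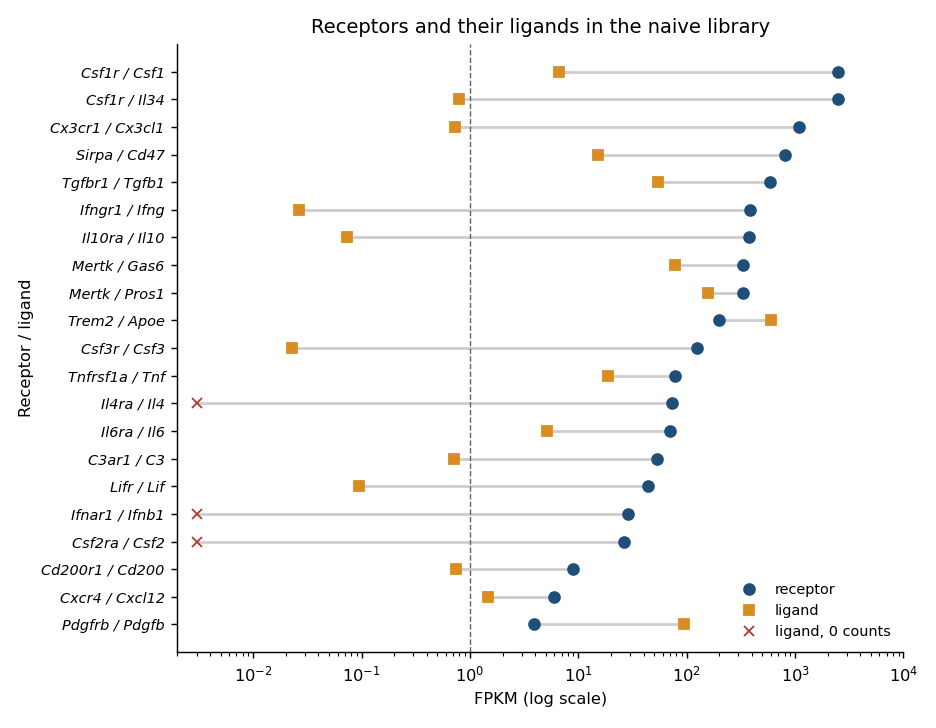
FPKM (log scale) of the receptor (circle) and ligand (square) in each of 21 pairs in the naive library; crosses are ligands with 0 counts and the dashed line marks 1 FPKM. The circle lies to the right of its ligand in 19 pairs, all but Trem2 with Apoe and Pdgfrb with Pdgfb.

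Antigen presentation genes had 21 of 22 members above 1 FPKM and a median of 50.6 FPKM. Of class I, H2-D1 stood at 109 FPKM and H2-K1 at 97.1 beside B2m. The class II genes H2-Eb1, H2-Aa and H2-Ab1 stood at 129, 102 and 93.1 FPKM and the invariant chain Cd74 at 203. Ciita, the class II transactivator, stood at 1.36 FPKM. Cd86, a co-stimulator, stood at 92.6 FPKM, Cd80 at 12.7 and Cd40 at 0.272. Class I genes are close copies of each other, so their values depend on how shared reads were counted.

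Genes of disease-associated microglia, a state described in neurodegeneration models, split in the naive library. Of 24 genes 22 were above 1 FPKM and the median was 15.2 FPKM. Ctsd, B2m, Tyrobp, Apoe, Fth1, Ctsl, Lyz2, Ftl1, Trem2 and Cd9 were at 194 FPKM or above. The rest were lower: Timp2 had 78.0 FPKM, Axl 14.2, Clec7a 11.9, Itgax 5.86, Cst7 4.99 and Lpl 2.34. Gpnmb, a lysosomal glycoprotein, had 16 counts.

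Proliferation genes had 8 of 20 members above 1 FPKM and a median of 0.597 FPKM. Pcna and Mcm3, which also act in DNA repair and licensing, led with 15.7 and 15.5 FPKM. Mki67 stood at 1.49 FPKM and Top2a at 1.06, and the mitotic genes Ccnb1, Plk1 and Aurkb were between 0.091 and 0.421. The DNA methylation machinery, of interest because the study also profiled methylated DNA, had 11 of 14 genes above 1 FPKM and none above 17.7 FPKM. Dnmt3a and Dnmt1, the de novo and maintenance methyltransferases, stood at 12.5 and 11.2 FPKM. Of the oxidising enzymes Tet3 stood at 13.5 FPKM, Tet2 at 7.48 and Tet1 at 1.15, while Dnmt3l had 0 counts.

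Noncoding RNA held a small set of very abundant species. Rn7sk, the 7SK RNA that restrains the elongation factor P-TEFb, had 1265614 counts, 4.05% of the library and 26.8% of the summed FPKM. Rpph1, the RNA of RNase P, had 0.563% of counts and Rmrp, the RNA of RNase MRP, had 0.440%. With Rn7sk these took 5.05% of counts and 34.2% of the summed FPKM, so a share of FPKM is lowered for all other genes alike. Because they are short, from 271 to 331 bases, their FPKM is less certain than that of long genes where fragments are longer than the RNA.

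Malat1, a nuclear long noncoding RNA, had 231440 counts (0.740%) and 1059.5 FPKM. It was 218-fold above Neat1 (interval 210.0 to 225), the scaffold of paraspeckles, at 4.87 FPKM. The other genes that RefSeq calls long noncoding held 0.316% of counts together. Among listed ones Mir142hg, host of a blood cell miRNA, stood at 109 FPKM, Tug1 at 19.8, Gas5 at 16.2 and Dleu2 at 12.1. Mir155hg, H19 and Hotair had 0 counts. Outside the list and picked after their values were seen, AU020206 stood at 76.6 FPKM and Zeb2os, antisense to the microglial factor Zeb2, at 23.2. Zeb2 stood at 21.02, and whether the counting used strand is not given, so the reads of this pair cannot be told apart.

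Small nucleolar and Cajal body RNAs held 0.225% of counts, led by Gm22009 (25374 counts), Scarna2 (13898) and Snord17 (9613). Other small nuclear RNAs held 0.0379% and the replication-dependent histone names 0.0768%. Rows of Gm26917, Gm42418 and CT010467.1, which are known to collect ribosomal RNA reads, together held 0.412%.

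**Figure D4:**
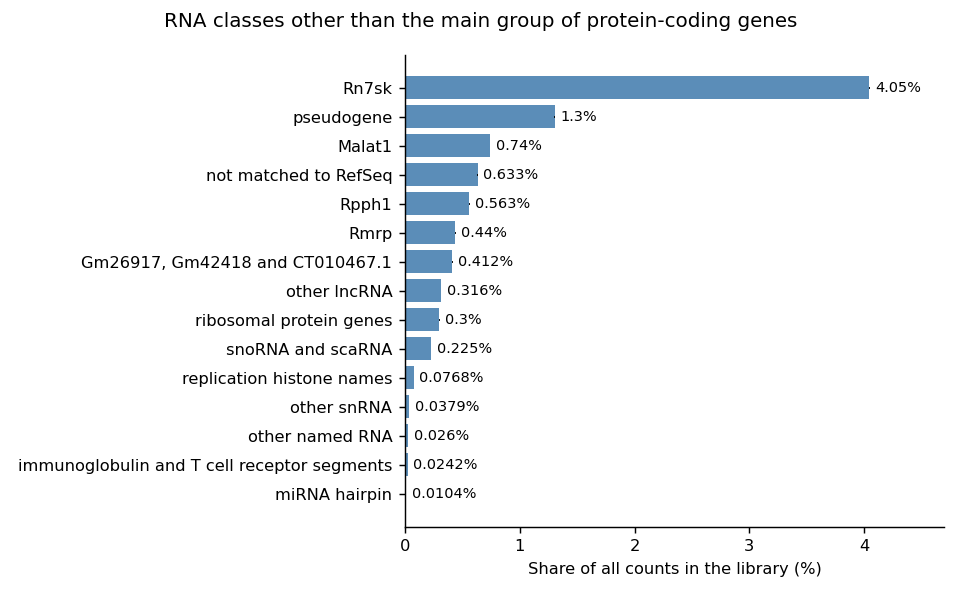
Share of all counts (%) in each RNA class of the naive library other than the main group of protein-coding genes, which held 90.8%; error bars, mostly narrower than a line, are exact 95% binomial intervals. Rn7sk alone held 4.05%, more than any other class shown.

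Rows of miRNA hairpins held 0.0104% of counts: 336 of 1102 had any, with 3249 in all. Counts at a hairpin do not separate the mature miRNA from its precursor or host transcript. The most counts were at Mir1901 (178), Mir142 (115), Mir1938 (90) and Mir7-1 (89). Mature sequences are printed for 4 hairpins known from work on myeloid or brain cells, to show which seeds those rows could carry. They come from RefSeq on build GRCm38.p6, 5′ to 3′, with the seed, bases 2 to 8, in capitals. Mir142 lies at chr11:87756867-87756887 and chr11:87756903-87756925 (plus strand), Mir7-1 at chr13:58392800-58392821 and chr13:58392841-58392863 (minus), Mir339 at chr5:139369673-139369695 and chr5:139369708-139369730 (minus) and Mir23a at chr8:84208527-84208548 and chr8:84208563-84208583 (plus).
mmu-miR-142a-5p: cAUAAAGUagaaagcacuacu
mmu-miR-142a-3p: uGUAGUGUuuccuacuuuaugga
mmu-miR-7a-5p: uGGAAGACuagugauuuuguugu
mmu-miR-7a-1-3p: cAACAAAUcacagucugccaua
mmu-miR-339-5p: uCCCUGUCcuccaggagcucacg
mmu-miR-339-3p: uGAGCGCCucggcgacagagccg
mmu-miR-23a-5p: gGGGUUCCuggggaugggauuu
mmu-miR-23a-3p: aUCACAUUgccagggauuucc

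No seed was shared among these 8. The hairpin rows of Mir339 and Mir23a had 69 and 57 counts.

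Genes commonly used as references were low here. Gapdh, the glycolytic enzyme, stood at 14.9 FPKM over a length of 4133 bases, and Ppia, cyclophilin A, at 4.04 over 3508 bases, while Eef1a1, an elongation factor, stood at 436. The 79 ribosomal protein genes held 0.300% of counts with a median of 8.26 FPKM, and rows called pseudogenes held 1.30%. Among 50 ribosomal protein genes with named pseudogenes in the table, 21 had fewer counts than their pseudogenes, and over all 50 the pseudogenes held 43999 counts against 35658 in the genes. Tpt1, a growth-linked protein gene, had 641 counts beside 7985 at Tpt1-ps3, and Rps23 had 73 beside 4547 at Rps23-ps1. Over all parents with named pseudogenes this held for 46 of 234. Levels of genes with near-identical copies are therefore uncertain, since the files do not say how shared reads were assigned.

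Markers of other cells were read in the same way, because a sorted pool can hold other cells or RNA released from them. In bulk RNA, few cells of a type and little RNA per cell cannot be told apart. The summed FPKM of the microglia identity list was 33276. Those of border macrophages (117), monocytes (32.3), neutrophils (29.3), T and NK cells (2.22), mast cells (1.49) and neurons (3.41) were far below it, over lists of unequal size. Dendritic cell markers summed to 494 FPKM, of which Siglech made up 442, choroid plexus markers to 1596, erythroid markers to 214 and astrocyte markers to 208.

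Among blood cells, none of 20 T and NK cell markers and none of 7 mast cell markers reached 1 FPKM, and 9 of the former, Cd3e, Cd3g, Cd2, Cd8a, Cd8b1, Trbc1, Trbc2, Ncr1 and Gzmb, had 0 counts. Of 16 monocyte markers 8 were above 1 FPKM, the highest being Nr4a1 at 7.91, also an immediate early gene, and Ace at 6.58. Ly6c2, the antigen of classical monocytes, had 5 counts. Neutrophil markers had 5 of 13 above 1 FPKM, led by S100a9 at 14.1 FPKM, with Ly6g, Mpo and Elane at 0 counts. Of 10 dendritic cell markers 4 were above 1 FPKM, among them Siglech, which microglia share, while Ccr7 and Ccr9 had 0 counts.

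All 12 markers of border macrophages, the macrophages of the meninges and vessels, were above 1 FPKM, from 1.40 FPKM for Clec10a to 37.2 FPKM for the mannose receptor Mrc1. Tmem119 was 47.6-fold above Mrc1 (interval 46.5 to 48.7). Pf4 stood at 17.8 FPKM, F13a1 at 16.7 and Lyve1 at 10.8. Whether these reads came from border macrophages or from microglia was not tested.

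B cell markers were uneven: 3 of 10 were above 1 FPKM, 4 had at least 10 counts and the list held 8381 counts. Ighm, the immunoglobulin mu heavy chain, had 7117 counts and 121 FPKM, and Cd79b, a signalling chain of the B cell receptor, had 670 counts and 15.0 FPKM. Other markers of the list were near the floor, among them Cd79a with 4 counts, Igkc with 5 and Ms4a1 with 1. Ighd, the neighbouring delta chain, had 136 counts. The B cell genes Ms4a1 and Pax5 thus had 1 and 8 counts where Ighm had 7117.

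Hemoglobin genes were present, with Hbb-bs at 89.3 FPKM, Hbb-bt at 68.3 and Hba-a1 at 45.2, while the red cell membrane gene Slc4a1 had 18 counts. Hemoglobin genes are near-identical copies, so the split among them is uncertain. The 6 erythroid genes found held 0.0170% of counts.

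Astrocyte markers had 12 of 14 above 1 FPKM, a median of 7.87 FPKM and a highest value of 48.6 FPKM. The glutamate transporters Slc1a3 and Slc1a2 stood at 45.6 and 24.2 FPKM, whereas Gfap stood at 0.675. Oligodendrocyte markers had 8 of 13 above 1 FPKM, led by Cnp at 18.0 and Mbp, myelin basic protein, at 8.70, with Mog at 0.675. None of 17 neuron markers reached 1 FPKM, and their median was 0.108 FPKM, or 0.332 FPKM over members with at least 10 counts.

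Vessel markers were detected in larger shares and at lower medians than the astrocyte markers. Endothelial genes had 12 of 13 above 1 FPKM, a median of 3.14 FPKM and a highest value of 26.4 FPKM. Among them Pecam1 stood at 10.04 FPKM and Cldn5, a tight junction protein, at 8.32. Pericyte and smooth muscle genes had 9 of 10 and a median of 4.57 FPKM, led by Vtn at 23.6 and Acta2 at 16.1. Fibroblast genes had 2 of 10, Ptgds at 9.85 and Igf2 at 2.73, with the collagens Col1a1 and Col3a1 at 0.146 and 0.163.

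Choroid plexus genes were the exception in size, because of Ttr. It had 50176 counts and 1316 FPKM, coding rank 16, and was 217-fold above Kl (interval 207 to 228), a further choroid plexus gene. Enpp2, which makes lysophosphatidic acid, stood at 248 FPKM. The other 10 genes of the list stood between 0.0446 and 8.20 FPKM, with Clic6 highest, Folr1 at 5.93 and Otx2 at 1.57. The ciliary genes Ccdc153 and Tmem212 had 3 and 1 counts. The source of the Ttr reads was not tested.

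**Figure D5:**
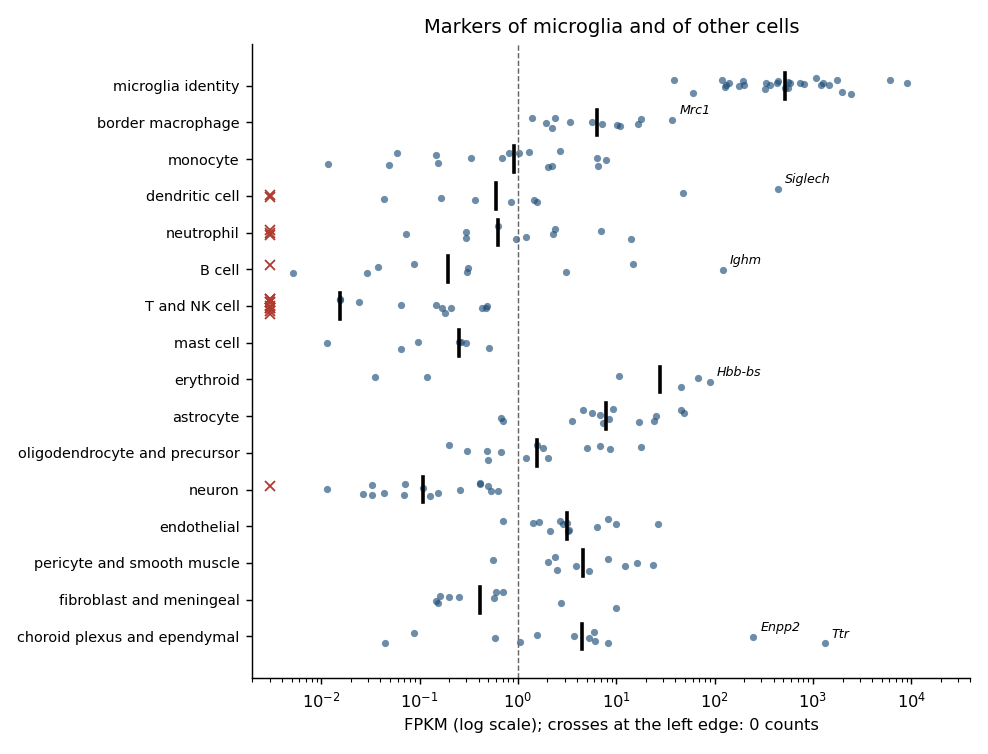
FPKM (log scale) of markers of microglia and of 15 other cell types in the naive library; each point is 1 gene, the black bar is the list's median, crosses at the left edge are genes with 0 counts and the dashed line marks 1 FPKM. The microglia list spans 39.0 to 9106 FPKM, and in other lists the points above 100 FPKM are Siglech, Ighm, Enpp2 and Ttr.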

How the data were processed

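RNA of naive microglia was sequenced in 1 library, which per the labels' protocols came from a total RNA kit that keeps strand and depletes ribosomal RNA. The deposited table gives a raw count per Ensembl gene and an FPKM value that the authors computed, per the file headers. The submitters' processing notes name Bowtie2, TopHat, featureCounts, edgeR and build mm10; for their versions, settings and use of strand, the sources used here give nothing.

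Each deposited FPKM equals counts divided by a gene length and by the table's total: 100% of 21072 implied lengths were whole within 0.001 bases. How those lengths were built is not given. Rows without a symbol (506, 0.0573% of counts) stayed out of named genes and lists. Classes came from RefSeq (GRCm38.p6), to which 32265 rows matched.

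Shares, ranks, list medians with members at 0 included, and exact Poisson and Clopper-Pearson 95% intervals were computed with Python 3.11.15, pandas 2.3.3 and scipy 1.17.1, and tested on simulated data. A count of 0 was read as at most 3 counts. With 1 library no test was made. The main alternatives were other level thresholds, TPM, a minimum of 10 counts, and ranking by counts.

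The 45 lists gave 921 genes found in the table, 76 of them in more than 1 list, and 47 not found under their symbols, 38 of which lie on X or Y, and the list of sex-linked genes gave no member. Genes were named by rule: the 25 highest by FPKM and by counts, up to 8 of each list, the markers and sort genes, up to 5 of each name family, the 5 largest rank shifts each way and the hairpins with most counts. A few such genes go unnamed in the text, though list counts include them. Further names are said to be picked later. The lists, pairs and promoter words were chosen with earlier results of these data known.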

Additional observations from a re-analysis of the deposited data

How the results depend on the processing

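The 100 genes with most counts held 28.7% of counts. This was 28.7% without rows that have no symbol, 57.3% as the share of the FPKM sum in the 100 genes of highest FPKM, and 25.2% without Rn7sk, Rpph1 and Rmrp, an alternative added after seeing the data. Leaving out mitochondrial rows gave no value, since no such row was matched. The number of genes at 1 FPKM or more (12351) was 13989 at 0.5 FPKM, 10652 at 2 FPKM, 14208 at 1 TPM and 12082 with at least 10 counts as well. Of 44 lists, 28 had a median of 1 FPKM or more, 36 with members of at least 10 counts only and 34 in TPM. For 14 lists the count minimum moved the median by over 1.5 times, because it drops members near 0. Besides those given with their lists above, the medians with the minimum were 1.33 FPKM for arginine, tryptophan and itaconate enzymes (0.0640 without it), 45.2 for erythroid (27.9), 1.21 for neutrophil (0.634), 1.44 for dendritic cell (0.602), 0.456 for T and NK cell (0.0155) and 9.02 for B cell (0.194) markers. No paired analysis was possible because there is 1 library. Pooled mice leave the spread between animals unknown, and depth limits genes below 10 counts, whose order is not resolved. FPKM also depends on the authors' gene lengths and on reads shared with pseudogenes.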
